A study of Mus musculus with 6 samples.

Results

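Complex I is the first and largest enzyme of the respiratory chain, and its genes are described here in the fat cells of mice that lack the transcription factor PU.1 in adipocytes. The deposited table of estimated counts lists 35122 genes, and 53 of them are protein-coding genes whose symbol begins with Nduf or mt-Nd. These 53 comprise 7 nuclear core subunits, 29 accessory subunits, 7 core subunits encoded by mitochondrial DNA, 8 assembly factors with an Ndufaf symbol, and 2 genes that carry an Nduf symbol without being counted as subunits in textbooks today (Ndufa4 and Ndufa4l2). All 53 had enough counts to be tested, among 13925 genes in all.

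Epididymal fat was digested with collagenase, the adipocytes were collected as the cells that float, and their RNA was sequenced as 1 library for each of 3 control and 3 aPU.1KO mice. All mice were male, of the C57BL/6 strain, fed standard chow and aged 10 to 11 months by their labels. Both groups carried the floxed PU.1 alleles (PU.1 fl/fl), in which loxP sites surround exon 5 of the Spi1 gene, and the aPU.1KO mice also carried Cre recombinase under the Adipoq (adiponectin) promoter, which is active in adipocytes and is not known to act in macrophages. Spi1 itself was measured at 24.3, 6.35 and 26.7 CPM (counts scaled to a common library total) in control mice 1, 2 and 3, and at 3.20, 1.22 and 4.17 CPM in aPU.1KO mice 1, 2 and 3.

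The libraries differed in ways that bear on what follows. Total counts were 69283842 in control mouse 1 and between 20550252 and 24310144 in the other 5 mice. The summed level of 12 macrophage markers was between 480 and 1477 CPM in the control mice, with control mouse 2 lowest, and between 263 and 337 CPM in the aPU.1KO mice. Of these 12 markers, 10 were lower in aPU.1KO at an unadjusted p under 0.05 from edgeR, and none of the 12 was at 0 in any library. The summed level of 10 adipocyte markers was between 26756 and 29207 CPM in the control mice and between 32437 and 38975 CPM in the aPU.1KO mice. The 6 hepatocyte markers, all lower in aPU.1KO at an unadjusted p under 0.05, summed to between 38.9 and 62.7 CPM in the control and between 17.0 and 23.9 CPM in the aPU.1KO mice. All genes of mitochondrial DNA together took between 4.34% and 5.40% of the counts in the control mice and between 5.10% and 9.38% in the aPU.1KO mice, with aPU.1KO mouse 2 highest.

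Complex I takes electrons from NADH, passes them through a flavin and a chain of iron-sulfur clusters to ubiquinone, and uses the energy to pump protons across the inner mitochondrial membrane. The enzyme is shaped like an L. Its matrix arm holds the NADH and quinone chemistry in nuclear-encoded core subunits, and its membrane arm holds the proton pumps in subunits that mitochondrial DNA encodes. Accessory subunits surround this core, and assembly factors help to build the enzyme without staying in it. White adipocytes hold fewer mitochondria than brown ones, yet they need them to make the ATP and the carbon precursors for lipid synthesis.

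Nuclear genes of the respiratory chain are known to be controlled by factors such as NRF1, the ETS family factor GABP, YY1, CREB and the estrogen-related receptors (ERR). PU.1 is an ETS family factor too. Promoter windows from RefSeq (build GRCm38.p6, 250 bases before to 50 bases after the start) were available for 40 of the 46 nuclear members, and were searched on both strands for the letters CGCATGCG (NRF1), CCGGAAG (ETS/GABP), GAGGAAGT (PU.1), ATGGCG (YY1), TCAAGGTCA (ERR) and TGACGTCA (CREB). The ETS/GABP and PU.1 letters share the run GGAAG, and ATGGCG can also be a start codon followed by an alanine codon. The promoter of Ndufb6, the subunit with the lowest p of all members, is shown first, with the ETS/GABP letters on the reverse strand in capitals; it lies at chr4:40279422-40279671 on the minus strand, just before the start.

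Ndufb6 promoter: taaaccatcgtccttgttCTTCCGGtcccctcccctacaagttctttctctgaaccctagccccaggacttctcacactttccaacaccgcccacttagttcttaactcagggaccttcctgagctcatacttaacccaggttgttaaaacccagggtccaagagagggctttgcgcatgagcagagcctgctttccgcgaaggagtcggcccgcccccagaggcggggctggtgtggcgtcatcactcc

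The PU.1 letters occurred in the windows of 2 members, Ndufa5 (chr6:24527869-24527896, minus strand) and Ndufs4 (chr13:114388098-114388125, minus strand). They lie before the RefSeq start. In the GENCODE annotation these genes begin further out, at 24528013 and 114388258, so both stretches lie inside the gene there. Both stretches are shown because PU.1 is the factor removed, with its letters in capitals.
Ndufa5: tccataacctGAGGAAGTccgggtaaaa
Ndufs4: tttgagaacgGAGGAAGTgagtccctag
The NRF1 stretches below were picked after the values were seen. Ndufa8 and Ndufaf5 lay at the low end of the fold changes given later, while Ndufa11 and Ndufaf4 did not. The NRF1 letters, in capitals, occurred in 4 members. They are Ndufa8 (chr2:36049330-36049357, minus strand), Ndufa11 (chr17:56717693-56717720, plus strand), Ndufaf4 (chr4:24897961-24897988, plus strand) and Ndufaf5 (chr2:140170653-140170680, plus strand). By GENCODE the stretches of Ndufa8 and Ndufaf5 lie inside the gene.
Ndufa8: tcgctggagaCGCATGCGcagatggtac
Ndufa11: ctgcactgcgCGCATGCGcgcacgcctt
Ndufaf4: cagatgtctgCGCATGCGcctgtgcgga
Ndufaf5: gtcccgttggCGCATGCGcctaatagaa

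Of the 40 members with a window, 10% held the NRF1 letters, against 2.07% of all 27025 genes with a window. The ETS/GABP letters were in 15% of the members and 9.93% of all genes, and the PU.1 letters were in 5% and 3.69%. The YY1 letters were in 32.5% of the members and 10.2% of all genes, the CREB letters in 7.5% and 2.03%. The ERR letters were in none of the members' windows and in 0.466% of all genes. None of the 6 sets of letters was found in 16 members. These are matches of letters and no measurement of binding.

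The comparison of aPU.1KO with control mice asks how the RNA of the complex differed when PU.1 was deleted in adipocytes. Nearly all members were higher in the aPU.1KO mice, by a small amount: 51 of 53 had a positive log2 fold change, with a median of 0.37 over the 53, against 0.014 over all 13925 genes tested, of which 7242 were positive. No member passed an adjusted p under 0.05 in edgeR's quasi-likelihood test, which called 33 genes, or 0.237% of those tested. At an unadjusted p under 0.05 the same test had 38 members higher, against 11.9% of all genes, and 1 member lower, against 13.7%. At an adjusted p under 0.1, 15 members were higher, against 3.09% of all genes. DESeq2, the tool of the study's own analysis, called 21 members higher and 0 lower at an adjusted p under 0.05, against 3.51% of all genes called higher and 7.48% called lower. In bulk RNA, fewer cells of another type and more RNA per adipocyte cannot be told apart, and the median log2 fold change of the 10 adipocyte markers was 0.38.

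In 39 of the 53 members the 3 aPU.1KO mice all lay above the 3 control mice, as they did in 16.7% of all genes tested. The reverse held for 1 member, against 15.5% of all genes. By class, no overlap between the groups was seen in 6 of 7 nuclear core subunits and 26 of 29 accessory subunits. The same held for 6 of 8 assembly factors and 0 of 7 mitochondrially encoded subunits. For 7 genes, a count of 0 lies near the 16.7% of all genes. It also takes mt-Nd3 without its near-identical nuclear copy Gm28438, and that pair summed did not overlap. Among the assembly factors, Ndufaf6 was separated only by 4.64178 against 4.64003 CPM. Class medians of the log2 fold change were 0.41 for the nuclear core, 0.39 for accessory subunits, 0.34 for assembly factors and 0.53 for the mitochondrially encoded subunits. The differences between these medians were not tested.

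**Figure D1:**
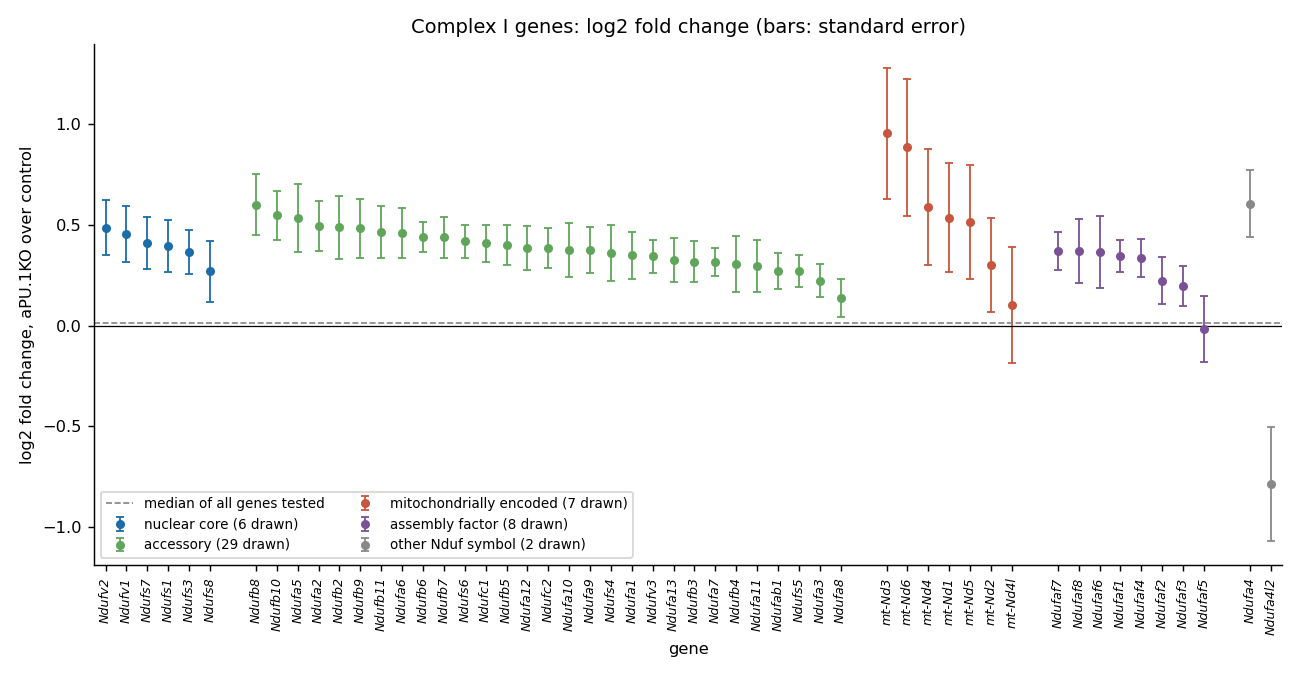
Log2 fold change (aPU.1KO over control, edgeR) of 52 members on the y axis, by gene on the x axis, coloured by class, with bars for the standard error and a dashed line at the median of all genes tested. The 6 nuclear core subunits drawn lie between 0.27 and 0.49, the mitochondrially encoded subunits spread from 0.10 to 0.95 with wider bars, and Ndufa4l2 stands alone at -0.79.

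The 7 nuclear core subunits form the electron path of the matrix arm. Ndufv1 carries the flavin and the NADH site, and was measured at 132, 151 and 133 CPM in control mice 1 to 3 and at 182, 228 and 161 CPM in aPU.1KO mice 1 to 3. Its neighbour Ndufv2, which holds an iron-sulfur cluster, was at 77.7, 80.9 and 76.0 CPM in the control and 104, 133 and 91.7 CPM in the aPU.1KO mice. For both genes every aPU.1KO mouse lay above every control mouse, with mouse 2 highest and mouse 3 lowest of the aPU.1KO group. The log2 fold change was 0.45 for Ndufv1 (standard error 0.14) and 0.49 for Ndufv2 (standard error 0.14). These were the 2 core subunits that DESeq2 called at an adjusted p under 0.05, against 3.51% of all genes called higher.

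Ndufs1, the subunit with the most iron-sulfur clusters, had 141, 148 and 138 CPM in the control and 198, 211 and 152 CPM in the aPU.1KO mice. Ndufs3, which helps to hold the arm together, had 85.9, 94.4 and 86.3 CPM in the control and 112, 131 and 101 CPM in the aPU.1KO mice. Again the groups did not overlap in either gene, and the log2 fold changes were 0.40 (standard error 0.13) and 0.37 (standard error 0.11). Ndufs7, which carries the last iron-sulfur cluster before ubiquinone, was at 44.8, 44.5 and 47.9 CPM in the control and 58.5, 72.4 and 51.4 CPM in the aPU.1KO mice, a log2 fold change of 0.41 (standard error 0.13). The groups did not overlap. Ndufs8, which carries a pair of iron-sulfur clusters near the quinone site, was the 1 core subunit with overlap: 40.5, 38.6 and 43.3 CPM in the control against 46.9, 60.7 and 40.0 CPM in the aPU.1KO mice, with a value of 0.27 on the log2 fold change scale (standard error 0.15). Without aPU.1KO mouse 2 the log2 fold change was 0.087 for Ndufs8, 0.26 for Ndufs7, 0.30 for Ndufv1 and 0.32 for Ndufv2, each lower by more than 1.5 times. Over the 7 genes the edgeR adjusted p was between 0.101 and 0.313.

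The 29 accessory subunits do no electron transfer but are needed for assembly and stability. All 29 had a positive log2 fold change, between 0.14 and 0.60. An unadjusted p under 0.05 was reached by 26 of them, an adjusted p under 0.1 by 12, and DESeq2 called 15 at its adjusted p under 0.05, against 11.9%, 3.09% and 3.51% of all genes. The 5 with the lowest p lay in all parts of the enzyme. Ndufb6 (chr4:40270591-40279421, minus strand, GRCm38), a subunit of the distal membrane arm, was at 54.9, 57.5 and 58.5 CPM in the control and 75.1, 83.2 and 73.4 CPM in the aPU.1KO mice. Ndufs6 (chr13:73319838-73328542, minus strand), a zinc-binding subunit of the matrix arm, was at 45.2, 45.4 and 50.7 CPM in the control and 63.5, 66.2 and 59.0 CPM in the aPU.1KO mice. Ndufb10 (chr17:24722060-24724478, minus strand), another subunit of the distal membrane arm, was at 66.3, 68.7 and 66.5 CPM in the control and 88.5, 117 and 88.8 CPM in the aPU.1KO mice. In all 3 genes the gap between the groups was wider than the spread of the control mice. Their log2 fold changes were 0.44 (standard error 0.076), 0.42 (standard error 0.082) and 0.55 (standard error 0.12), with edgeR adjusted p-values of 0.0724, 0.0760 and 0.0783. DESeq2 gave 0.00068, 0.00411 and 0.00525, the lowest of the alternatives, and the highest was 1.00 for each with a macrophage score as a covariate. Exons of Ndufb6 share 257 bp with Smim27 and those of Ndufs6 share 30 bp with Mrpl36, both on the opposite strand. Other members have such overlaps as well, as Ndufb5 does over 616 bp with Mrpl47. Strand was not stated for the libraries.

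Ndufa7, a matrix arm subunit, was at 62.6, 62.5 and 67.1 CPM in the control and 83.3, 79.6 and 76.2 CPM in the aPU.1KO mice. It had the smallest standard error of the accessory subunits, 0.070, around a log2 fold change of 0.32, and aPU.1KO mouse 1 rather than mouse 2 was its highest library. Ndufc1, a small subunit with a single membrane helix in the proximal membrane arm, was at 47.5, 46.2 and 48.6 CPM in the control and 62.7, 69.9 and 56.4 CPM in the aPU.1KO mice, a log2 fold change of 0.41 (standard error 0.093). The lowest log2 fold changes among accessory subunits were those of 3 subunits of the proximal membrane arm. Ndufa8, which faces the intermembrane space, was at 68.9, 72.1 and 72.1 CPM in the control and 68.5, 85.4 and 80.6 CPM in the aPU.1KO mice, so that aPU.1KO mouse 1 lay below all controls. Ndufa3 was at 56.6, 58.8 and 63.8 CPM in the control and 70.3, 74.2 and 64.8 CPM in the aPU.1KO mice. Ndufs5, also on the intermembrane side, was at 76.2, 81.2 and 82.3 CPM in the control and 94.7, 104 and 91.0 CPM in the aPU.1KO mice. Their log2 fold changes were 0.14 (standard error 0.095), 0.22 (standard error 0.083) and 0.27 (standard error 0.078). That of Ndufa8 was 0.067 without aPU.1KO mouse 2 and 0.21 without aPU.1KO mouse 1.

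By position in the enzyme, the median log2 fold change was 0.40 for the 16 nuclear subunits of the matrix arm, 0.32 for the 9 of the proximal membrane arm and 0.45 for the 10 of the distal membrane arm, where the Ndufb subunits sit around the outer proton pumps. The ranges of the 3 groups overlapped, from 0.27 to 0.54, from 0.14 to 0.41 and from 0.31 to 0.60. The largest value of any accessory subunit was that of Ndufb8 in the distal membrane arm, 0.60 (standard error 0.15). Ndufab1, the acyl carrier protein that sits in both arms and also serves mitochondrial fatty acid synthesis, was not counted in either arm and had 0.27 (standard error 0.088).

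Other members share sequence with other genes too, as Ndufc1 does with Ube2e1 over 112 bp at 98.2% identity. Ndufb4 was less certain, since reads of near-identical copies can be split between genes. It was at 39.9, 38.9 and 48.3 CPM in the control and 60.6, 52.2 and 44.2 CPM in the aPU.1KO mice, with overlap, and its processed pseudogene Ndufb4c, identical over 390 bp, held 42.1% of the counts of the pair. The pair summed gave a log2 fold change of 0.32 (standard error 0.16), near the 0.31 (standard error 0.14) of Ndufb4 alone, which was 0.18 without aPU.1KO mouse 1.

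The 7 mitochondrially encoded subunits build the membrane arm's core, and their RNA is made from mitochondrial DNA by a separate polymerase as long transcripts that are then cut. They differed from the nuclear subunits in their spread between mice of a group. mt-Nd1 (chrM:2751-3707), which lines the quinone channel, was at 3231, 3350.0 and 2921 CPM in the control and 4026, 6556 and 3184 CPM in the aPU.1KO mice. mt-Nd2 (chrM:3914-4951), the proton pump subunit nearest to it, was at 3493, 3869 and 3097 CPM in the control and 4187, 5595 and 3112 CPM in the aPU.1KO mice. In each gene mouse 2 was the highest of its group and mouse 3 of the aPU.1KO group lay within the control range. The log2 fold changes were 0.53 (standard error 0.27) and 0.30 (standard error 0.23), and without aPU.1KO mouse 2 they were 0.18 and 0.064.

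The outer proton pumps mt-Nd4 and mt-Nd5 had the same order of mice. mt-Nd4 (chrM:10167-11544) was at 5339, 6411 and 4273 CPM in the control and 7057, 11246 and 5826 CPM in the aPU.1KO mice, a log2 fold change of 0.59 (standard error 0.29). mt-Nd5 (chrM:11742-13565) was at 3006, 3846 and 2198 CPM in the control and 3954, 5726 and 3233 CPM in the aPU.1KO mice, a log2 fold change of 0.51 (standard error 0.28). mt-Nd4l (chrM:9877-10173), whose reading frame overlaps the start of mt-Nd4 on a shared mRNA, was at 563, 742 and 384 CPM in the control and 600.5, 777 and 437 CPM in the aPU.1KO mice. Its log2 fold change of 0.10 (standard error 0.29) was the lowest of the 7 although mt-Nd4 lies on that mRNA, and it turned to -0.11 when control mouse 3 was left out and to -0.12 when aPU.1KO mouse 2 was.

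mt-Nd6 (chrM:13552-14070), the only protein gene read from the other strand of mitochondrial DNA, was at 111, 156 and 85.0 CPM in the control and 177, 325 and 149 CPM in the aPU.1KO mice. Only aPU.1KO mouse 3 lay inside the control range, and the log2 fold change was 0.89 (standard error 0.34). mt-Nd3 (chrM:9459-9806), a small subunit at the joint of the arms, was at 474, 574 and 534 CPM in the control and 1021, 1486 and 557 CPM in the aPU.1KO mice. It had the largest log2 fold change of all 53 members, 0.95 (standard error 0.33), with an edgeR adjusted p of 0.134 and a DESeq2 adjusted p of 0.0302, and over the alternatives the adjusted p ran from that value to 1.00. A nuclear copy of mt-Nd3 on chromosome 1, Gm28438, which is 99.7% identical over 345 bp, held 59.3% of the counts of both, so that reads of the 2 genes could not be told apart. Gm28438 was at 706, 668 and 713 CPM in the control and 1264, 2544 and 818 CPM in the aPU.1KO mice. Summed, the pair was at 1179, 1242 and 1248 CPM in the control and 2285, 4029 and 1375 CPM in the aPU.1KO mice, without overlap. The log2 fold change of the sum was 1.07, with a standard error of 0.36 and an edgeR adjusted p of 0.131. Without aPU.1KO mouse 2 the log2 fold change was 0.58 for mt-Nd3, 0.47 for mt-Nd6, 0.27 for mt-Nd4 and 0.25 for mt-Nd5. Of the 7 genes, mt-Nd3 and mt-Nd6 had an unadjusted p under 0.05 in edgeR, against 11.9% of all genes higher. DESeq2 called mt-Nd3 alone, against 3.51% of all genes called higher. The edgeR adjusted p of the 7 genes was between 0.134 and 0.845.

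**Figure D2:**
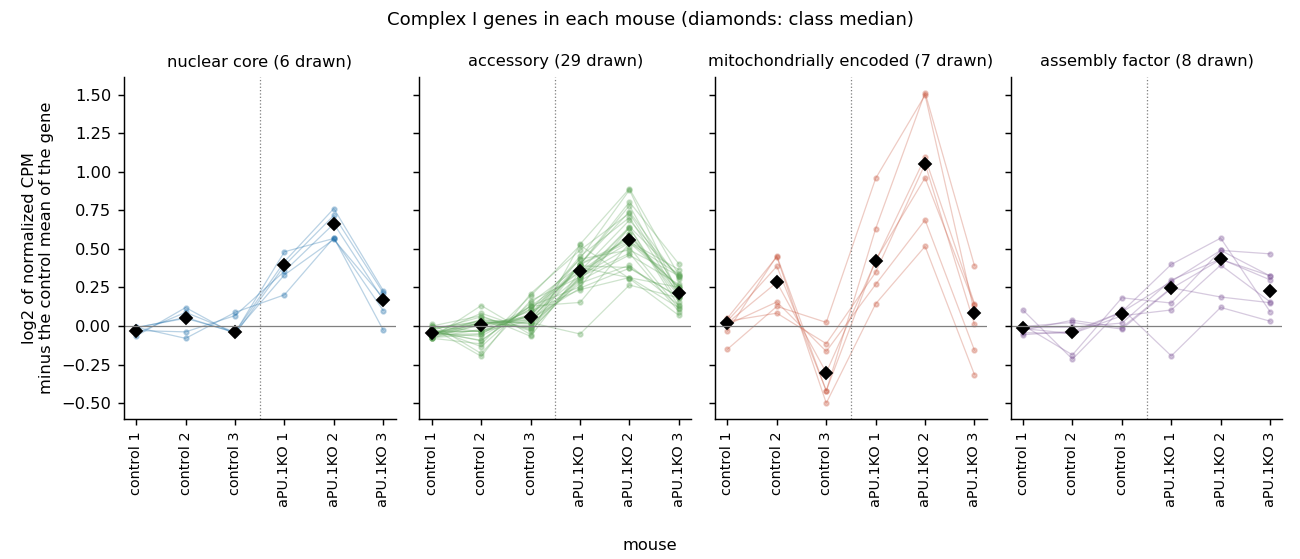
Log2 of the normalized CPM of each gene minus its mean over the control mice (y axis) in each of the 6 mice (x axis), with a thin line for each gene drawn and a diamond at the median of the whole class, for the 4 classes. Median deviations in aPU.1KO mice 1, 2 and 3 were 0.39, 0.66 and 0.17 for the nuclear core, 0.35, 0.56 and 0.21 for accessory subunits, 0.42, 1.05 and 0.085 for mitochondrially encoded subunits, and 0.25, 0.43 and 0.23 for assembly factors.

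The order of the mice was shared by most subunits. Of the 36 nuclear subunits, 33 were highest in aPU.1KO mouse 2 and 3 in aPU.1KO mouse 1, and 32 were lower in aPU.1KO mouse 3 than in the other two mice of that group. All 7 mitochondrially encoded subunits were highest in aPU.1KO mouse 2, and in all 7 aPU.1KO mouse 3 lay below the highest control mouse. For the nuclear subunits that was so in 3 of 36. Genes measured in the same library share its RNA and its scaling, so these counts over genes are not counts of independent observations.

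Levels were compared between genes per kilobase, as normalized CPM divided by the mean length of a gene's protein-coding transcripts. In control mice the nuclear subunits ranged from 18.8 CPM per kb for Ndufb2 to 178 CPM per kb for Ndufb9, a ratio of 9.51 with a median of 85.8 CPM per kb. The mitochondrially encoded subunits ranged from 226 CPM per kb for mt-Nd6 to 3876 CPM per kb for mt-Nd4 in the mean of the control mice. The means of mt-Nd6 (226 ± 69.3 CPM per kb, SD, n = 3) and Ndufb9 (178 ± 6.01, SD, n = 3) differed by less than the SD of mt-Nd6, while the other 6 mitochondrially encoded subunits lay above every nuclear subunit in that mean. Assembly factors ranged from 4.03 to 26.2 CPM per kb with a median of 13.2. The order of the nuclear subunits depends on the annotated lengths.

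The summed level of the 36 nuclear subunits was 3166, 3266 and 3358 CPM per kb in control mice 1 to 3 and 4171, 4922 and 3792 CPM per kb in aPU.1KO mice 1 to 3. The groups did not overlap, and the means differed 1.32-fold, 3263 ± 95.7 against 4295 ± 575 CPM per kb (SD, n = 3). The summed level of the 7 mitochondrially encoded subunits was 15735, 18437 and 13334 CPM per kb in the control and 20827, 31054 and 15685 CPM per kb in the aPU.1KO mice, and aPU.1KO mouse 3 lay below 2 of the 3 control mice. The means differed 1.42-fold, 15836 ± 2553 against 22522 ± 7823 CPM per kb (SD, n = 3). These sums count mt-Nd3 without its copy Gm28438, which held 59.3% of the counts of both. The place of aPU.1KO mouse 3, the fold and the ratio below therefore depend on how reads were split between the 2 genes. Sums with the copy were not computed. The ratio of the mitochondrial to the nuclear sum was 4.97, 5.65 and 3.97 in the control and 4.99, 6.31 and 4.14 in the aPU.1KO mice. The means, 4.86 ± 0.842 and 5.15 ± 1.09 (SD, n = 3), lay closer together than the mice of either group.

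**Figure D3:**
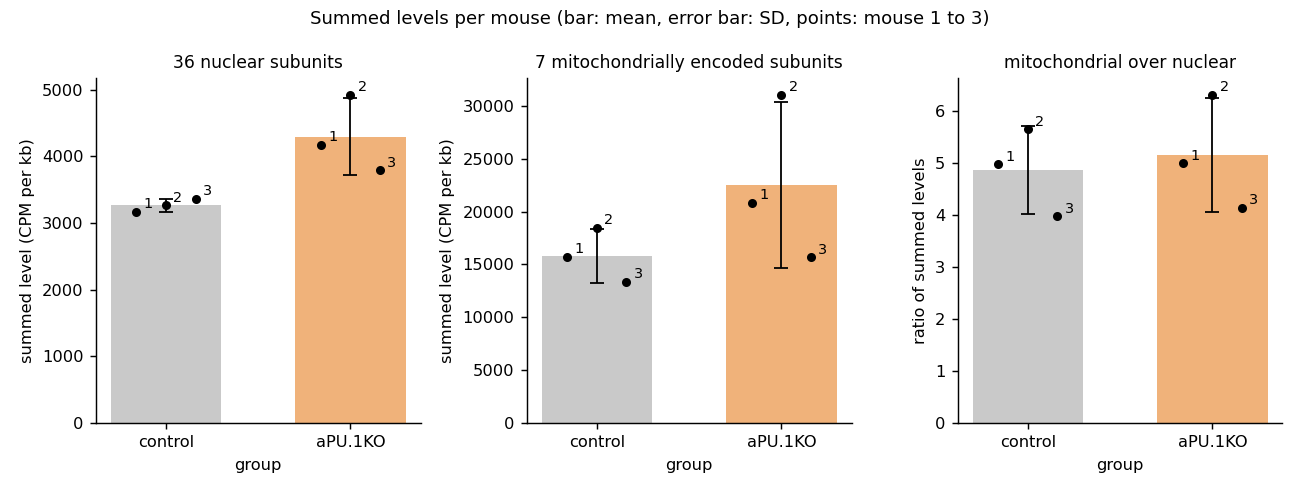
Summed level per mouse of the 36 nuclear subunits and of the 7 mitochondrially encoded subunits (y axes, CPM per kb) and the ratio of both sums (right), by group, with bars for the mean, error bars for the SD and numbered points for mice. The nuclear sums of the groups do not overlap, while the mitochondrial sums and the ratios do. The mitochondrial sums leave out Gm28438, the copy of mt-Nd3.

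The 8 assembly factors with an Ndufaf symbol act at different steps. Ndufaf1, part of the complex that builds the proximal membrane arm, was at 22.8, 22.8 and 23.2 CPM in the control and 28.2, 31.0 and 28.2 CPM in the aPU.1KO mice, and Ndufaf7, a methyltransferase needed early in assembly, was at 21.7, 21.7 and 23.8 CPM against 27.3, 31.5 and 28.0 CPM. Of the 8, DESeq2 called only these 2, against 3.51% of all genes called higher. Their log2 fold changes were 0.35 (standard error 0.080) and 0.37 (standard error 0.093). Ndufaf3 and Ndufaf4 work together on the quinone module. Ndufaf3 was at 11.7, 12.3 and 11.9 CPM against 14.2, 13.6 and 13.3 CPM, and Ndufaf4 at 13.8, 14.1 and 13.7 CPM against 16.4, 18.7 and 17.4 CPM, with log2 fold changes of 0.20 (standard error 0.098) and 0.34 (standard error 0.096) and no overlap of the groups in either.

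Ndufaf2, a relative of Ndufa12 that acts late in assembly, was at 12.8, 12.5 and 13.6 CPM in the control and 13.9, 17.0 and 14.4 CPM in the aPU.1KO mice, a log2 fold change of 0.22 (standard error 0.12) that was 0.13 without aPU.1KO mouse 2. Ndufaf6 was at 4.19, 4.25 and 4.64 CPM in the control and 5.74, 6.46 and 4.64 CPM in the aPU.1KO mice, where mouse 3 equalled the highest control to the digits shown, and its log2 fold change was 0.37 (standard error 0.18). Ndufaf5, an enzyme that hydroxylates Ndufs7, and Ndufaf8, its stabilizing partner, act as a pair. Ndufaf5 was at 7.37, 5.91 and 7.42 CPM in the control and 6.00, 7.46 and 7.01 CPM in the aPU.1KO mice, with the groups mixed, and Ndufaf8 was at 8.55, 7.49 and 9.68 CPM against 9.45, 12.0 and 11.8 CPM. Their log2 fold changes were -0.018 (standard error 0.16) and 0.37 (standard error 0.16). The sign of Ndufaf5 turned without control mouse 1 or 3 or aPU.1KO mouse 1.

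Ndufa4 and Ndufa4l2 were first named as complex I genes, and Ndufa4 is now known as a subunit of cytochrome c oxidase, complex IV. Ndufa4 was at 168, 167 and 196 CPM in the control and 284, 318 and 205 CPM in the aPU.1KO mice, without overlap, and its log2 fold change was 0.61, with a standard error of 0.17 and an edgeR adjusted p of 0.0992. Its relative Ndufa4l2, which hypoxia is known to induce, was at 5.94, 6.00 and 4.88 CPM in the control and 2.08, 4.43 and 3.22 CPM in the aPU.1KO mice. It was the 1 member in which the aPU.1KO mice all lay under the lowest control. Its log2 fold change was -0.79, with a standard error of 0.28 and an edgeR adjusted p of 0.148. All 6 endothelial markers had negative log2 fold changes as well, with a median of -0.50, and summed to between 496 and 726 CPM in the control and between 303 and 643 CPM in the aPU.1KO mice; their part in the value of Ndufa4l2 was not tested.

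Other genes of the pathway were read from lists chosen by function. Among assembly factors outside the Nduf names, 9 of 11 had a positive log2 fold change, with a median of 0.17, and an unadjusted p under 0.05 was reached by 3, all of them higher, against 11.9% of all genes. Those 3 were Dmac1 (0.44, standard error 0.11), Nubpl (0.32, standard error 0.098), which delivers iron-sulfur clusters, and Tmem70 (0.20, standard error 0.085). Tmem70 had 0.13 without aPU.1KO mouse 1. Acad9, the partner of Ndufaf1, had -0.056 (standard error 0.092), which turned to 0.024 without aPU.1KO mouse 2. The 4 subunits of complex II, which feeds electrons from succinate, were all higher at an unadjusted p under 0.05, against the same 11.9%. Their median was 0.36, with the largest value in Sdhb (0.66, standard error 0.17). Without aPU.1KO mouse 2 the values were 0.23 for Sdha, 0.47 for Sdhb, 0.17 for Sdhc and 0.20 for Sdhd. Of the other 6 protein genes of mitochondrial DNA, 5 had positive values, up to 0.90 for mt-Atp6 (standard error 0.31; 0.51 without aPU.1KO mouse 2), 3 were higher at an unadjusted p under 0.05, and mt-Atp8 had -0.096 (standard error 0.28), which turned to 0.20 without control mouse 2 and to 0.063 without aPU.1KO mouse 3.

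Of 16 regulators of mitochondrial gene expression, 11 had a positive and 5 a negative log2 fold change, with a median of 0.18. That median was not computed with a mouse left out, and single values such as that of Ppargc1a below moved. An unadjusted p under 0.05 was reached by 3, all higher, a share near the 11.9% of all genes, and 0 passed an adjusted p under 0.1. They were Tfam (0.27, standard error 0.097), which packages mitochondrial DNA, Tfb2m (0.24, standard error 0.086), a factor of the mitochondrial polymerase, and Slirp (0.31, standard error 0.13), which stabilizes mitochondrial mRNA. The coactivator Ppargc1a was at 4.85, 4.82 and 4.92 CPM in the control and 4.52, 8.86 and 6.11 CPM in the aPU.1KO mice, with overlap and a log2 fold change of 0.42 (standard error 0.25), or 0.13 without aPU.1KO mouse 2. Nrf1 had -0.21 (standard error 0.17), Gabpa -0.073 (standard error 0.075) and Yy1 0.18 (standard error 0.086). Nrf1 had -0.071 without aPU.1KO mouse 1 and -0.38 without aPU.1KO mouse 2. Gabpa had -0.024 without aPU.1KO mouse 3, and Yy1 had 0.11 without aPU.1KO mouse 2. Set beside the promoter letters, the 4 members with NRF1 letters had log2 fold changes between -0.018 and 0.34 with a median of 0.22, the 13 with YY1 letters between 0.27 and 0.54 with a median of 0.37, the 6 with ETS/GABP letters between 0.27 and 0.44 with a median of 0.37, the 3 with CREB letters between 0.30 and 0.49 with a median of 0.37, and the 16 with none of the letters between 0.20 and 0.61 with a median of 0.36. Some members hold more than 1 of these sets of letters, as Ndufa11 holds those of NRF1 and CREB. The 2 with PU.1 letters, Ndufa5 and Ndufs4, had 0.54 (standard error 0.17) and 0.36 (standard error 0.14), and 0.32 and 0.20 without aPU.1KO mouse 2.

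**Figure D4:**
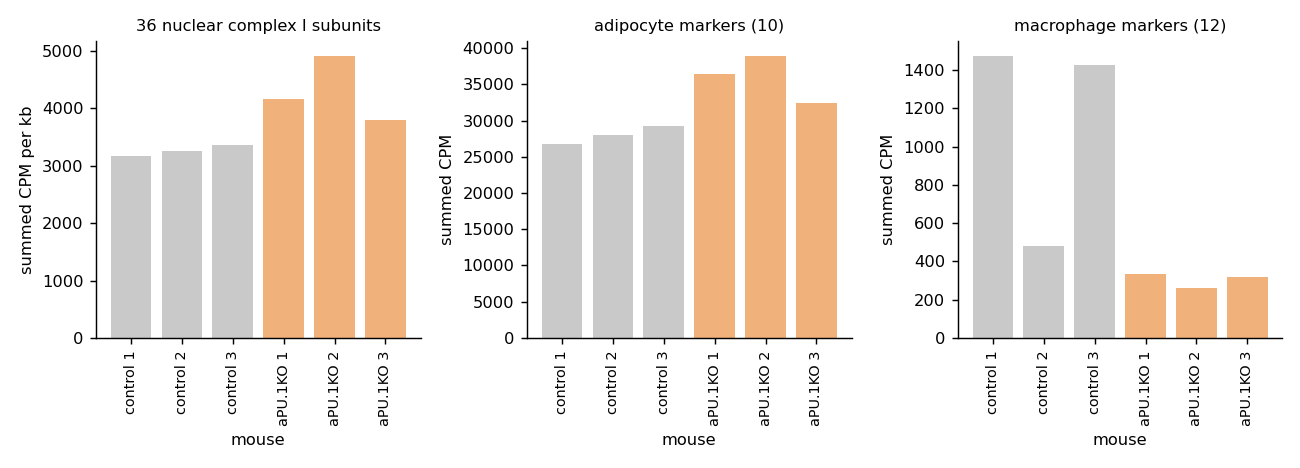
Summed level in each mouse (x axis) of the 36 nuclear complex I subunits (y axis, CPM per kb), of 10 adipocyte markers and of 12 macrophage markers (y axes, CPM). The sums of the nuclear subunits and of the adipocyte markers are higher in each aPU.1KO mouse than in any control mouse, and those of the macrophage markers are lower.

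Among the adipocyte markers, 8 of 10 were higher and 1, Lep, lower at an unadjusted p under 0.05. Their part in the values of the complex I genes was not tested. Of the 6 brown or beige adipocyte markers, 4 had enough counts to be tested: Ppara was higher (0.43) and Dio2 lower (-1.57) at an unadjusted p under 0.05, and Cox8b (0.31) and Cidea (0.13) did not reach it. Ucp1 and Elovl3 were not tested, and Ucp1 was at or below 1.06 CPM in every mouse. The 7 fibroblast and progenitor markers summed to between 1545 and 2247 CPM in the control and between 891 and 1226 CPM in the aPU.1KO mice, with a median log2 fold change of -0.91, and 5 of them were lower at an unadjusted p under 0.05. Their part in the values of the complex I genes was not tested either. The macrophage score, the mean log2 CPM of the macrophage markers centred over the mice, was between -0.04 and 1.33 in the control and between -0.97 and -0.69 in the aPU.1KO mice, so that it separated the groups. With this score as a covariate, 0 members passed an unadjusted p under 0.05 by edgeR, against 0.582% of all genes higher, and the class medians were 0.25 for the nuclear core, 0.32 for accessory subunits, 0.31 for assembly factors and -0.087 for the mitochondrially encoded subunits. The score and the genotype cannot be told apart in 6 mice.

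**Figure D5:**
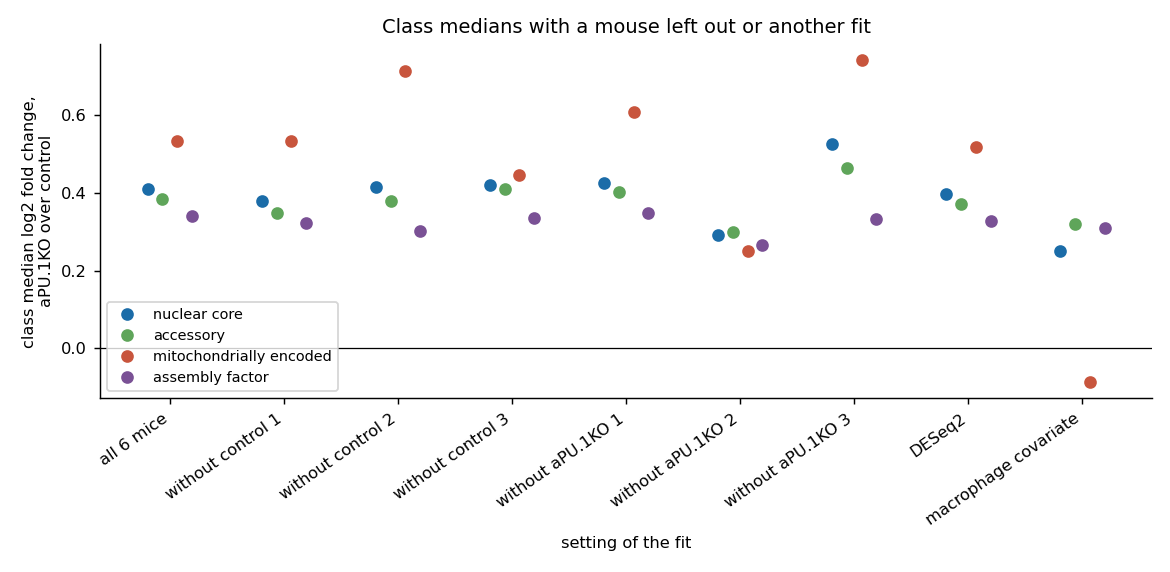
Median log2 fold change (y axis) of the 4 classes under each setting of the fit (x axis): all 6 mice, each mouse left out, DESeq2, and a macrophage score as covariate. The medians of the nuclear core stay between 0.29 and 0.53 with a mouse left out, those of the mitochondrially encoded subunits between 0.25 and 0.74, and the latter are -0.087 with the covariate.

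Single libraries carried much of the size of the differences. Without aPU.1KO mouse 2 the class medians were 0.29 for the nuclear core, 0.30 for accessory subunits, 0.27 for assembly factors and 0.25 for the mitochondrially encoded subunits, the last of which is under the full value by more than 1.5 times. Without aPU.1KO mouse 3 they were 0.53, 0.46, 0.33 and 0.74. The number of members higher at an unadjusted p under 0.05 was 29 without aPU.1KO mouse 2, 45 without aPU.1KO mouse 3 and 20 without control mouse 1, where 10.0%, 13.3% and 4.15% of all genes were higher. No class median changed sign with any mouse left out, and the medians of the 36 nuclear subunits stayed between 0.30 and 0.47.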

How the data were processed

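RNA of the adipocyte fraction was sequenced in 3 control and 3 aPU.1KO mice. The authors quantified reads with Salmon (validateMappings) and deposited estimated counts summed per gene, as whole numbers without normalization. The submitters' processing notes also name FastQC and the build GRCm38; the Salmon version and annotation are not given in the sources used here. The article describes the mice as older than the 10 to 11 months of the labels. Nothing in the labels names a batch. Library totals were 20550252 to 69283842, and no pair of libraries in a group was a duplicate.

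Of 35122 gene identifiers, 35031 matched GENCODE M21 (GRCm38); the rest held 0.0367% of counts. Differences were fitted over the whole table with edgeR 4.0.16 under R 4.3.3 (TMM, filterByExpr, glmQLFit, glmQLFTest, Benjamini-Hochberg over 13925 genes), as aPU.1KO over control; standard errors come from the coefficient and the F statistic. CPM values use TMM-scaled library sizes. The edgeR p-values set the group difference against variation between the 3 mice per group, with dispersion estimates that also draw on the other genes tested. Alternatives were RLE and upper quartile factors, genes of mitochondrial DNA left out of the library size, no filter, at least 10 counts in every library, DESeq2 1.42.0, limma-voom (limma 3.58.1), robust dispersion, legacy = FALSE, control library 1 thinned, a macrophage score as covariate and each mouse left out; summing of copies was chosen after seeing the data. BLAST 2.17.0 was used to look for copies, and Python 3.11.15 with matplotlib 3.10.9 for tables and plots. The code was tested on simulated data.

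The members, classes, marker lists and pathway lists were chosen with earlier results of these data known. Values in every mouse are given for core subunits, assembly factors, Ndufb6, Ndufb10 and Ndufs6 (which the study names), the 5 accessory subunits with the lowest p, the 3 with the lowest log2 fold change, and Ndufa4, Ndufa4l2 and Ndufb4; Ndufb8, Ndufab1, Ndufa5, Ndufs4, Ndufb2 and Ndufb9 were added after their values were seen. Promoter windows are RefSeq's, and 6 nuclear members had none. The NRF1 stretches shown were chosen after values were seen. Values of 1 member are not reported here; it is counted in the totals, medians and sums. The lists of lymphocyte, mesothelial and epididymis markers had sums of at most 4.92, 15.7 and 1.03 CPM in any mouse.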

Additional observations from a re-analysis of the deposited data

How the results depend on the processing

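No class median changed sign under another scaling, filter or tool without a covariate. The mitochondrially encoded median reversed to -0.087 with the macrophage score as covariate, where mt-Nd2 had -0.11, mt-Nd4 -0.056, mt-Nd5 -0.23, mt-Nd6 -0.087, mt-Nd4l -0.68 and Ndufaf5 0.31; the cause was not tested. With a mouse left out, mt-Nd4l lay between -0.12 and 0.34 and was reversed for control mouse 3 (-0.11) and aPU.1KO mouse 2 (-0.12). Ndufaf5 lay between -0.13 and 0.056 and was reversed for control mouse 1 (0.019), control mouse 3 (0.029) and aPU.1KO mouse 1 (0.056). The other members kept their direction in every setting.

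The number of members at an adjusted p under 0.05 was 0 in edgeR and limma-voom with all mice. DESeq2 gave 21, where 11% of all genes passed. With a mouse left out it was 0 to 1. That 1 was Ndufb6 when control mouse 2 was left out, a setting in which 1193 of 14306 genes (8.34%) passed. At an adjusted p under 0.1 the number was 15, where 3.09% of all genes were higher. DESeq2 gave 34 (5.69% of all genes higher), among them Ndufa4l2, which was lower, and limma-voom gave 6 (1.41%). The number was 0 with the covariate (0%) and 0 to 31 with a mouse left out. Leaving out control mouse 1, control mouse 3 or aPU.1KO mouse 1 gave 0 (0.0285%, 0.0214% and 0.0490% of all genes), aPU.1KO mouse 2 gave 1 (0.218%), control mouse 2 gave 9 (4.59%) and aPU.1KO mouse 3 gave 31 (5.24%). Members higher at an unadjusted p under 0.05 were 38 (11.9% of all genes) and 0 with the covariate (0.582%). They were 37 to 39 under the other settings (7.63% to 12.3%) and 20 to 45 with a mouse left out (4.15% to 13.3%). Members without overlap were 34 to 39 under other scalings, filters and thinning. The share of all genes, 16.7% in the main fit, was not computed for those settings. The ratio of mitochondrial to nuclear sums in aPU.1KO over control was 1.06, the same with longest transcripts, and 0.94 to 1.16 with a mouse left out. All of these leave out the counts of Gm28438, and the ratio with them was not computed. Ndufaf5, Ndufaf6, Ndufaf8 and Ndufa4l2, at under 10 CPM in the control mice, carry larger counting error, and 3 mice a group limit each single gene. No paired analysis was possible because the labels give each mouse a number of its own and do not say which mice share a litter.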

Other observations

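The short reading frames that overlap a longer neighbour on the same mitochondrial mRNA had lower values than that neighbour. The log2 fold change was 0.10 for mt-Nd4l (standard error 0.29) beside 0.59 (standard error 0.29) for mt-Nd4, and mt-Atp8 had -0.096 (standard error 0.28) beside 0.90 (standard error 0.31) for mt-Atp6. Without aPU.1KO mouse 2 the 4 values were -0.12, 0.27, -0.22 and 0.51, in the same order of genes. mt-Atp8 was at 37.2, 53.4 and 24.9 CPM in control mice 1 to 3 and at 38.3, 42.0 and 27.8 CPM in aPU.1KO mice 1 to 3. These genes were set side by side after their values were seen, and the difference within each pair was not tested.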
